A study of Homo sapiens with 38 samples.

Results

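The TERT and CLPTM1L locus lies near the end of the short arm of human chromosome 5, where the 2 genes stand side by side on the minus strand. In hg38, TERT spans chr5:1253147-1295068 and CLPTM1L spans chr5:1317752-1345099, with 22683 bp between them. The window examined ran from 20 kb left of TERT to 20 kb right of CLPTM1L (chr5:1233147-1365099, 131953 bp). Every peak and every compared region that touched the window was taken, which gave 12 of the 27085 peaks in 19 peak lists and 8 of the 62579 regions in 6 comparison tables. All 12 peaks lay at a single site inside CLPTM1L, and no list held a peak anywhere in TERT. The peaks and regions were chosen by position alone, but the locus itself was selected on its peaks in these lists and on its likelihood ratio in the Sp1 WT against Sp1 DBD table, so what follows is a description, without tests.

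The experiments mapped Sp1 by CUT&RUN, in which an antibody tethers micrococcal nuclease to a chromatin protein and the DNA cut out around it is sequenced, in U2OS osteosarcoma cells. All lines descended from 1 knock-in clone with V5-Halo-SP1 at the endogenous locus, so the controls carried the tagged Sp1 too, and all samples received 1 µg/mL doxycycline for 36 h before and 36 h after cell sorting, with 5 nM of Halo and SNAP ligands. The parental line without a transgene (CTRL) was compared with lines carrying a doxycycline-inducible transgene at AAVS1 with a FLAG tag, only part of whose cells switched it on before sorting. Each of the 19 groups had 2 replicates, and each list held the peaks that both replicates shared.

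The constructs were full-length Sp1 (Sp1 WT), Sp1 whose DNA-binding domain (DBD) was cut to 1 zinc finger (Sp1 DBD Mutant), the isolated Sp1 DBD, and a nuclear SNAP tag without Sp1 (SNAP-NLS). Others were the long disordered N-terminal part of Sp1 (written IDR in construct names) joined to bacterial LacI or to the CTCF DBD, each of these DNA-binding proteins alone, and the disordered part of EWS joined to the Sp1 DBD (EWS IDR-Sp1 DBD). Anti-FLAG read the transgene, in 11 lists including 2 from CTRL cells, which have no FLAG. Anti-V5, from mouse or rabbit, read endogenous Sp1 in 8 lists from the CTRL, Sp1 WT, Sp1 IDR-LacI and Sp1 IDR-CTCF DBD lines. These 8 lists all measured the same endogenous protein. The files hold peak scores rather than read counts, so the depth behind each peak is unknown here.

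Sp1 is a zinc finger transcription factor known for binding GC boxes, GGGCGG on either strand, in many promoters, those of housekeeping genes among them. TERT encodes the catalytic subunit of telomerase, the reverse transcriptase that extends chromosome ends, and its GC-rich promoter is a textbook Sp1 target in cells that express it. U2OS cells are known to keep their telomeres by recombination (alternative lengthening of telomeres) rather than by telomerase. CLPTM1L encodes a lipid scramblase of the endoplasmic reticulum membrane that takes part in making GPI anchors.

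The site that carried every peak is a tandem repeat, a minisatellite, in intron 9 of the main CLPTM1L transcript, CLPTM1L-201 (intron at chr5:1325817-1330279, 4463 bp, between exons 9 and 10). The repeat was delimited by the 12-base run with which its units begin, chaining occurrences no more than 87 bp apart. The chain ran from chr5:1326304-1329034, a length of 2731 bp, or 94.2 copies of a 29-bp unit. The run occurred 87 times, 77 of the 86 spacings between neighbours were exactly 29 bp, and the 87 units took 35 different forms. Along the array, 90.1% of bases equalled the base 29 positions further on. The commonest unit forms are shown on the plus strand of hg38 because every summit fell in the array that holds them. Which form lay under each summit was not counted. Capitals mark the bases that differ from form 1.
Form 1, 17 copies: cagctcctcctctacagacacatttcatc
Form 2, 15 copies: cagctcctcctctacagacacattCcatc
Form 3, 7 copies: cagctcctcctctacagGGacattCcatc
Form 4, 4 copies: cagctcctcctctacGgacacatttcatc
Form 5, 4 copies: cagctcctcctctacagGGacattCcaCc
Form 1 read on the minus strand, along CLPTM1L transcription: gatgaaatgtgtctgtagaggaggagctg

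The array held 0 GC boxes, and 0 copies of GGCGGG, a related GC-rich run, on either strand. Its GC content was 52.1%. It held instead 88 copies of CTCCTCCTC, the pyrimidine-rich run that opens each unit. The 201 bases centred on the position where most summits fell are shown next, from chr5:1328035-1328235 of hg38, plus strand, with that run in capitals.
Around the shared summit: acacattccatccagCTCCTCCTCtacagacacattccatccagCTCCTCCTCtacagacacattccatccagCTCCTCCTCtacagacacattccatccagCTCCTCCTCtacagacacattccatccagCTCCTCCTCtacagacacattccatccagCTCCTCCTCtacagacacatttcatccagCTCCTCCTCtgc
Most of the units shown have the sequence of form 2. The longest stretch of the array in which every base equalled the base 29 positions on was 211 bp (chr5:1328005-1328215, 7.3 copies), and the shared summit lay within it.

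The edges of the array show how closely the peaks followed it. The 118 bases across each edge are given for the plus strand of hg38, with the array in capitals and its flank in lower case.
Left edge, chr5:1326244-1326361: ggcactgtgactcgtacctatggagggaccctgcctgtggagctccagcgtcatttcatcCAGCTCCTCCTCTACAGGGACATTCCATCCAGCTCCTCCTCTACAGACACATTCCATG
Right edge, chr5:1328977-1329094: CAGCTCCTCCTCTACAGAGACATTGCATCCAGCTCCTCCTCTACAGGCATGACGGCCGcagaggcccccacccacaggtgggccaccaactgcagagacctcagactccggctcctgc
In the 8 V5 lists the merged peaks started between 1326063 and 1326216 and ended between 1329004 and 1329061, so their left ends spread over 153 bp and their right ends over 57 bp. They were 2792 to 2999 bp long and ranked 4th to 15th by length in their lists. Each covered at least 98.9% of the array. Endogenous Sp1 therefore gave a peak as long as the repeat, with both ends close to its edges, in every V5 list.

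**Figure D1:**
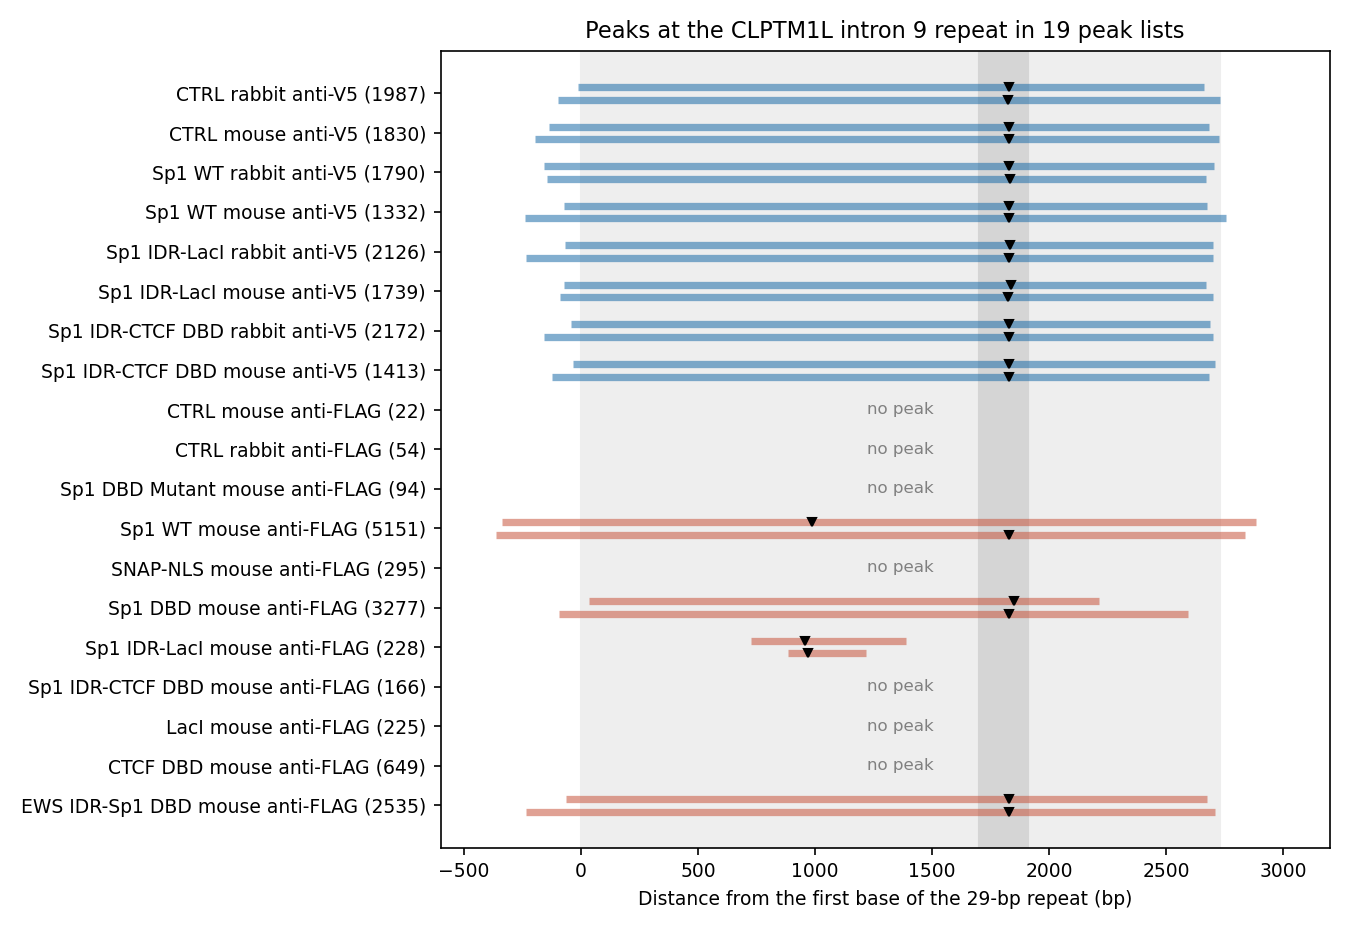
Peaks at the CLPTM1L repeat in each of the 19 lists, with the number of peaks in the whole list in parentheses. The x axis is the distance in bp from the first base of the 29-bp repeat; each bar is the peak of 1 replicate (blue anti-V5, red anti-FLAG), each triangle its summit, pale grey the 2731-bp array and darker grey its longest exact stretch of 211 bp. The V5, EWS IDR-Sp1 DBD and Sp1 WT bars span nearly the whole array, the Sp1 IDR-LacI FLAG bars cover only part of its left side, and 7 FLAG lists show no peak.

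The summits fell at nearly the same base. Of the 24 replicate summits, 20 lay within 10 bp of position 1328135, which is 1831 bp into the array. The 16 V5 summits all lay between 1328130 and 1328140. The 4 exceptions were all from FLAG lists. In the Sp1 WT FLAG list the summits were 845 bp apart, at 986 and 1831 bp into the array, so that list's merged summit at 1327712 is the mean of separate positions and marks neither. In the Sp1 DBD list they were at 1850 and 1831 bp. In the Sp1 IDR-LacI FLAG list they were at 958 and 971 bp, near the first Sp1 WT summit and far from the others. All 24 summits lay in the array.

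Peak strength was read from the −log10 p-value that the peak caller gave in each replicate. Merged peaks carry the lower of the 2 values, and ranks were taken within each list because lists are not on a common scale. The peak at the CLPTM1L repeat was among the strongest of the genome for endogenous Sp1. In CTRL cells the rabbit anti-V5 replicates gave 136 and 187, rank 14 of 1987 peaks. The mouse anti-V5 replicates of CTRL gave 198 and 264, rank 2 of 1830. The median peaks of these lists had 21.5 and 24.

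In the lines with a transgene the V5 peak ranked between 1 and 8. In Sp1 WT cells rabbit anti-V5 gave 134 and 123, rank 4 of 1790. Mouse anti-V5 in Sp1 WT cells gave 171 and 201, rank 1 of 1332, the highest merged value of that list. The replicates of each of these lists differed by 1.09 and 1.18 times, and both lay far above their list medians of 16.9 and 23.5.

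In Sp1 IDR-LacI cells rabbit anti-V5 gave 137 and 179, rank 7 of 2126. Mouse anti-V5 there gave 208 and 157, rank 8 of 1739. In Sp1 IDR-CTCF DBD cells rabbit anti-V5 gave 130 and 153, rank 5 of 2172, and mouse anti-V5 gave 146 and 174, rank 5 of 1413. Across all 8 V5 lists the peak stood 0.0751% to 0.705% from the top. The V5 values with a transgene (123 to 208) overlapped those without (136 to 264), and p-values also move with depth, which the files do not give.

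In the FLAG lists the values at the site differed by construct. Full-length Sp1 WT gave 114 and 149, rank 6 of 5151. The EWS IDR-Sp1 DBD chimera gave 66.0 and 97.9, rank 9 of 2535. The isolated Sp1 DBD gave 29 and 43.1, rank 558 of 3277, or 17% from the top. The values were highest for Sp1 WT and lowest for Sp1 DBD, although all 3 proteins hold the Sp1 zinc fingers. The list medians were close (18.7, 16.1 and 16.2). How many other sites show this order was not counted, and the depth of each list is unknown. The gap between Sp1 WT and Sp1 DBD is partly built in by the way the locus was selected.

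Sp1 IDR-LacI, which lacks zinc fingers, gave 7.94 and 8.55, rank 160 of 228 and below its list median of 9.27. That peak was 664 bp long and covered 24.3% of the array. The list is unlike the Sp1 lists: none of its 228 peaks held a GC box, and 26.3% were tandem repeats by the measure used below. By strength and by being a repeat the peak was thus ordinary for this list. It was the only peak of the 228 with CTCCTCCTC (22 copies), a run read from this array itself, and its self-match ranked 4. CLPTM1L was also the only 1 of 20046 protein-coding genes (0.00499%) with a peak within 1000 bp of an annotated start. The starts concerned (1326255 and 1326436) belong to minor transcripts without a defined coding sequence. Neither lies in the peak (chr5:1327030-1327693) or within 500 bp of it. LacI alone, a list of similar size with 225 peaks, held no peak in the window.

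**Figure D2:**
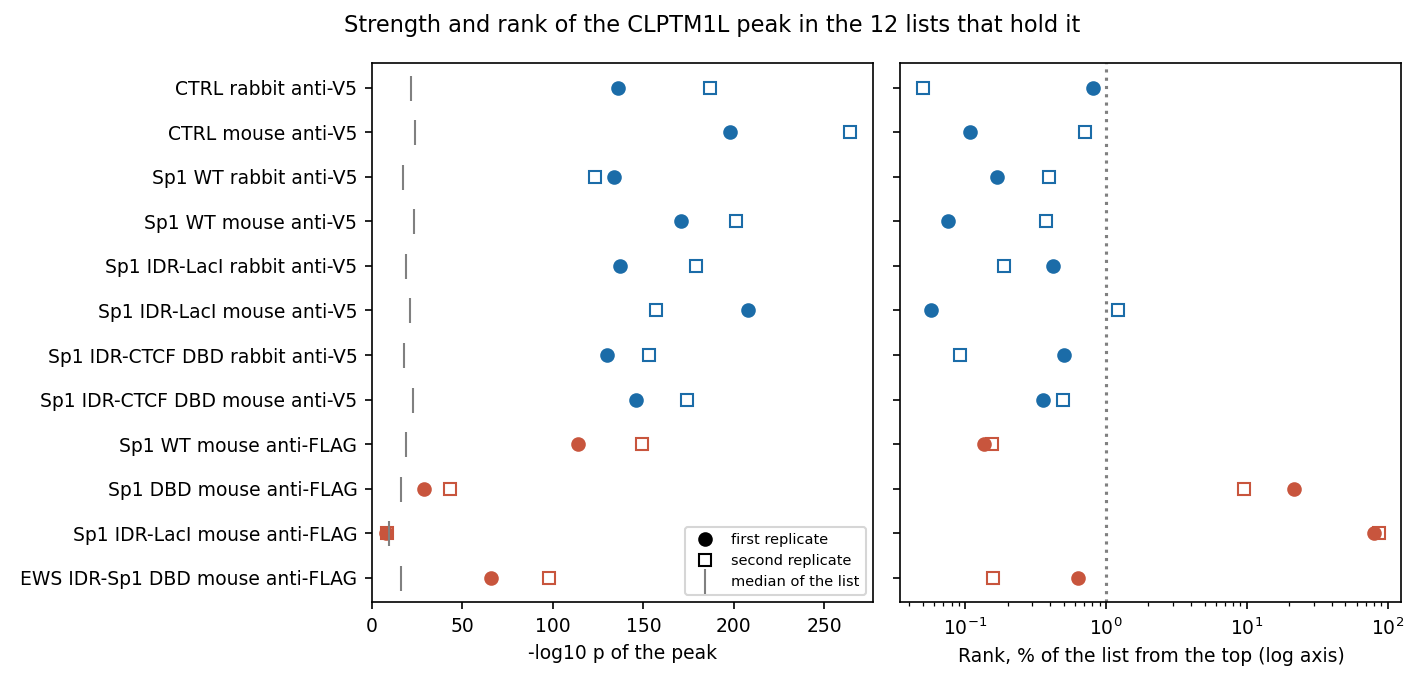
Strength and rank of the peak in the 12 lists that hold it. Left, −log10 p in the first (circles) and second (squares) replicate, with a grey bar at the median of the list; right, rank in each replicate as a percent of the list from the top on a log axis, with a dotted line at 1%. The 8 V5 lists (blue), Sp1 WT and EWS IDR-Sp1 DBD (red) lie at or left of the line apart from 1 replicate at 1.21%, while Sp1 DBD and Sp1 IDR-LacI lie far to its right.

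The peak was absent from 7 lists, all anti-FLAG. These were the CTRL lists with mouse and rabbit anti-FLAG (22 and 54 peaks), Sp1 DBD Mutant (94 peaks), SNAP-NLS (295 peaks), LacI (225 peaks), CTCF DBD (649 peaks) and Sp1 IDR-CTCF DBD (166 peaks). These CTRL, SNAP-NLS and LacI lists are the background of anti-FLAG, and none reported the array although 31.8%, 31.5%, 25.8% and 20.4% of their peaks were tandem repeats. Every line carried the V5 tag, so the lists hold no such background for anti-V5. Absence from a short list is weak evidence of absence. Of all 5151 Sp1 WT FLAG peaks, the share overlapped was 0.0% for CTRL mouse anti-FLAG, 0.194% for CTRL rabbit anti-FLAG, 0.233% for Sp1 DBD Mutant and 0.388% for SNAP-NLS. It was 0.214% for LacI, 3.88% for CTCF DBD and 1.42% for Sp1 IDR-CTCF DBD. Against these shares a missing peak at a given Sp1 site is what nearly every site showed.

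The lists that did hold the peak overlapped far more Sp1 WT sites, with 1 exception. The share of Sp1 WT peaks overlapped was 48.7% for Sp1 DBD and 35.1% for EWS IDR-Sp1 DBD. In the V5 lists it was, with rabbit and mouse antibody, 30.6% and 29.6% in CTRL cells, 26.4% and 21.1% in Sp1 WT cells, 32.8% and 27.3% in Sp1 IDR-LacI cells, and 33.4% and 22.2% in Sp1 IDR-CTCF DBD cells. Sp1 IDR-LacI FLAG overlapped 0.777%, 40 of 5151 peaks, and the CLPTM1L peak was 1 of the 40. Presence in 11 other lists thus combined sites that endogenous Sp1 and both zinc finger constructs commonly shared with a single overlap of a kind that was rare.

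The rank in the Sp1 DBD list was low for so strong a site. The locus was selected in part on its ratio of Sp1 WT against Sp1 DBD, so this contrast is partly built in. Of the 20 strongest Sp1 WT FLAG peaks, 19 had a peak in the Sp1 DBD list, and the CLPTM1L peak ranked below the 18 others there. The median of the 19 was 2.72% from the top, against 17% for CLPTM1L. In the EWS IDR-Sp1 DBD list the order turned round: 18 of the 20 had a peak, with a median of 4.73% from the top, and CLPTM1L at 0.355% ranked above 14 of them and below 3. In CTRL cells with mouse anti-V5 it ranked above all 18 others that had a peak. With rabbit anti-V5 it ranked above 11 and below 3 of the 14 others, at 0.705% from the top against a median of 2.82%.

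Built from the same FLAG experiments as the lists, the comparison tables were not independent of them. Each set the Sp1 WT FLAG track against that of 1 other construct, both averaged over replicates, and listed regions as specific to either or common, with a log10 likelihood ratio as the score. All 6 tables held a region specific to Sp1 WT over the array, 7 such regions in all, and none held a region specific to the other construct in the window. Most tables consist largely of regions specific to Sp1 WT, which were 94.4% of the Sp1 IDR-LacI table, 78.5% of the Sp1 IDR-CTCF DBD table, 95.6% of the LacI table and 73.3% of the CTCF DBD table. The corresponding shares were 29.4% for Sp1 DBD and 49.4% for EWS IDR-Sp1 DBD. Being specific to Sp1 WT is thus the usual state of a region in 4 tables, and the score says more than the call.

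Against Sp1 DBD the region ran over chr5:1325979-1329138 (3160 bp) with a ratio of 12.1, rank 3 among 3966 Sp1 WT-specific regions and the longest of those. Among those Sp1 WT-specific regions the median ratio was 1.55 and the 99th percentile 5.72. The locus was selected in part on this ratio, so its high rank here is not a separate result. Against LacI it was 46.3, rank 22 of 7620, and against CTCF DBD 46.0, rank 8 of 7445. These 2 constructs carry no part of Sp1.

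Against Sp1 IDR-CTCF DBD the ratio was 46.3, rank 6 of 7543. Against Sp1 IDR-LacI it was 36.1, rank 163 of 7505, below the 99th percentile of 41.5 among the Sp1 WT-specific regions there. Both chimeras carry the disordered part of Sp1 without its zinc fingers, and the lower ratio belonged to the construct whose FLAG list also held a peak in the array. The 4 regions against non-Sp1 DNA-binding proteins were 3240 to 3248 bp long.

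Against EWS IDR-Sp1 DBD the array was split. Its left part (chr5:1325971-1327640) had a ratio of 4.08, rank 1023 of 6623, and its right part (chr5:1327882-1329124) had 2.94, rank 1985. Between them a piece of 244 bp (chr5:1327641-1327884) was called common to both proteins. Among the Sp1 WT-specific regions of that table the median was 2.06 and the 90th percentile 4.9, so neither part stood out. These parts ranked 15.4% and 30.0% from the top of the Sp1 WT-specific regions against the EWS chimera. The high rank against Sp1 DBD was part of the selection and belonged to 1 unsplit region. The ranks in these tables are therefore not like for like, and no difference between the constructs is read from them. The tables share the Sp1 WT track and give 1 ratio a region from tracks averaged over the 2 replicates, so no error can be given for these ratios.

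**Figure D3:**
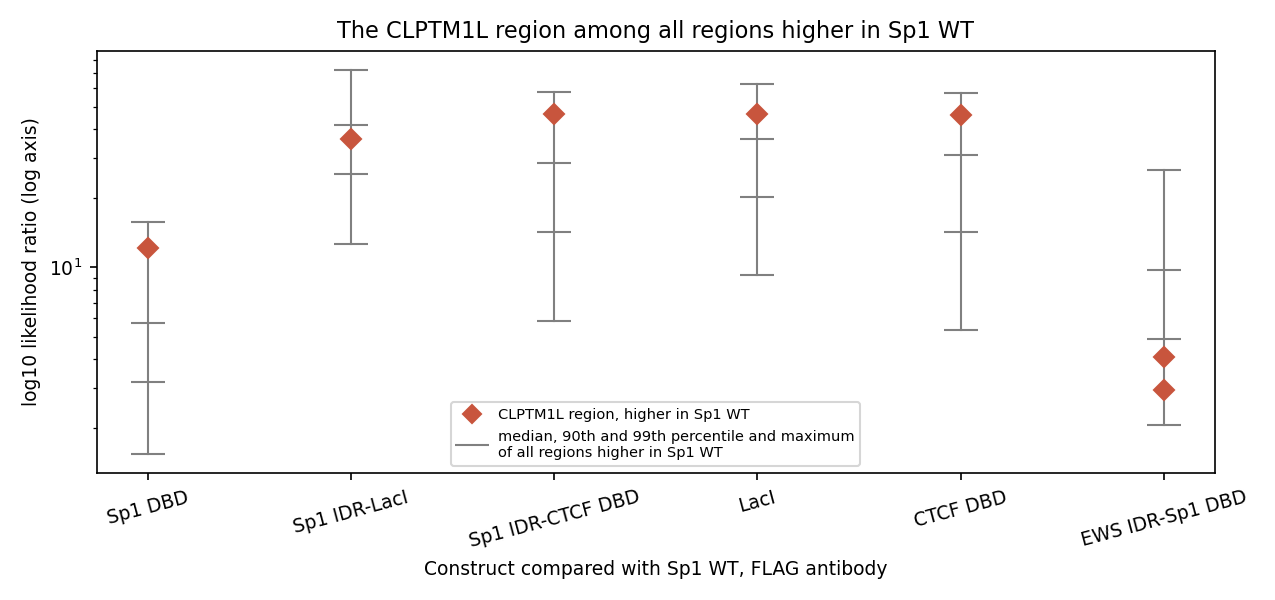
The log10 likelihood ratio of the CLPTM1L regions (red diamonds, log axis) in the 6 tables of Sp1 WT against another construct. Grey bars mark the median, 90th and 99th percentile and maximum of all Sp1 WT-specific regions in that table. The diamonds are above the 99th percentile for Sp1 DBD, Sp1 IDR-CTCF DBD, LacI and CTCF DBD, between the 90th and 99th for Sp1 IDR-LacI, and below the 90th for EWS IDR-Sp1 DBD.

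A strong Sp1 peak without a GC box was uncommon. Counted over whole peaks, 11 of the 12 peaks in the window held none. The exception was the longest, from Sp1 WT FLAG, whose 1 GC box at chr5:1326039-1326044 lay 265 bp outside the array. None of the 12 had a GC box within 100 bp of its summit. Peaks without one that near the summit made up 29.8% of the Sp1 WT FLAG list and 24.8% of the Sp1 DBD list. They were 27.3% of the EWS IDR-Sp1 DBD list, 15.6% to 25.8% of the V5 lists and every peak of the Sp1 IDR-LacI FLAG list. Lacking a box near the summit alone thus did not set the CLPTM1L peak apart. Among all peaks, those without a GC box anywhere were 7.4% in the Sp1 WT FLAG list, 3.94% in the Sp1 DBD list, 7.61% in the EWS IDR-Sp1 DBD list and 4.7% to 13.4% in the V5 lists. Among the peaks without a GC box, the CLPTM1L peak was the strongest in 5 of the 8 V5 lists and second strongest in the other 3. It ranked 3 of 193 in the EWS IDR-Sp1 DBD list and 11 of 129 in the Sp1 DBD list.

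Tandem repetition was measured in the same way over all peaks. For each peak the share of bases equal to the base a fixed distance on was taken, at the best distance between 10 and 100 bp, and peaks at 70% or more were counted as tandem repeats. The 12 CLPTM1L peaks scored 80.3% to 94.0%, always at 29 bp. The share of peaks at 70% or more was 0.699% (36 of 5151) for Sp1 WT FLAG, 0.854% for Sp1 DBD, 1.22% for EWS IDR-Sp1 DBD and 1.61% to 5.03% for the V5 lists. Of the 20 strongest peaks, 3 reached 70% in the Sp1 WT FLAG list and 1 to 6 did in the V5 lists, while 1 held no GC box in the Sp1 WT FLAG list and 1 to 3 held none in the V5 lists.

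The CLPTM1L peak also held more copies of CTCCTCCTC than almost any other. The run was taken from the unit of this array, so a high count here follows from that choice. It had 83 to 88 copies in the 11 long peaks, first in its list in 9 of these and second in the Sp1 WT FLAG and Sp1 DBD lists. At least 1 copy was present in 16.3% of all Sp1 WT FLAG peaks, and the median peak had 0.

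Short reads from a repeat can be hard to place, so the uniqueness of the array in hg38 was counted over chromosomes 1 to 22, X and Y on both strands. Of its words of 31 bases, 66.7% occurred more than once, with up to 23 copies. At 50 bases the share was 36.8%, at 100 bases 6.16%, and at 150 bases, the length of the reads before trimming, 2.4% (62 words). Words of 150 bases that lie in the exact 211-bp stretch all occur more than once, and the shared summit lay in that stretch. Trimmed reads can be shorter than 150 bases, where the repeated share was higher. No word of 100 or 150 bases occurred outside the array. How placement within the array affected the height or position of the peak was not tested. The number of units in the U2OS genome was not measured here, and all positions are those of the reference.

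Other repeats and other GC boxes in the window had no peak. A scan in steps of 50 bp with a 300-bp window and the same 70% limit found 15 tandem stretches, 8 in TERT, 4 in CLPTM1L and 3 in neither gene. Only the array described above was in a peak. The longest of the others was in TERT (chr5:1289047-1291846, 2800 bp), with a 42-bp unit, 89.1% self-match and a GC content of 68.5%. Another array with a 29-bp unit, also in CLPTM1L (chr5:1329347-1330096, 750 bp), lay a little to the right of the first. It held 0 copies of CTCCTCCTC and no peak reached it. Of the 105 GC boxes in the window, 1 was in a peak. The shares of all GC boxes and of all tandem stretches of the genome that lie in a peak were not counted. These counts therefore describe the window and do not set it apart.

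**Figure D4:**
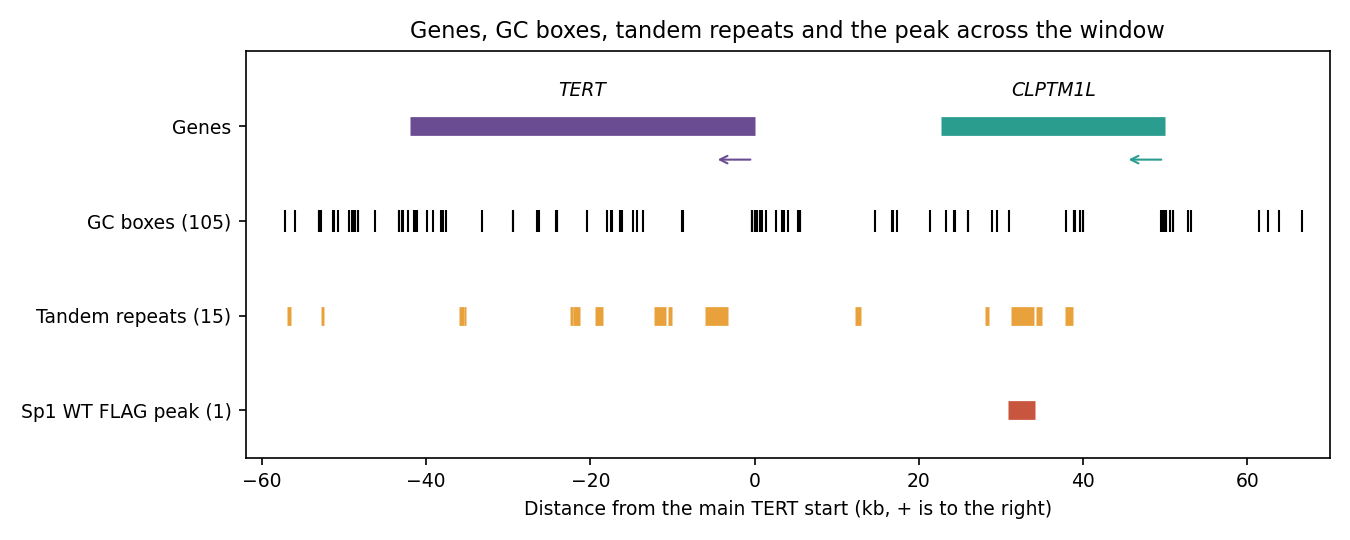
The window in kb from the main TERT start, with the direction of transcription as arrows, 105 GC boxes as ticks, 15 tandem repeats as orange blocks and the Sp1 WT FLAG peak in red. GC boxes cluster at both main starts and the single peak lies over the long CLPTM1L repeat, away from both.

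TERT held no peak in any of the 19 lists, at its main start (1295068) or at any of its 6 annotated starts. The nearest edge of the Sp1 WT FLAG peak was 30872 bp away. GC boxes were not lacking: 7 lay within 500 bp of the main start, and the 250 bases before it held 2, with a GC content of 78.8%. Of 35116 RefSeq promoters (GRCh38.p14), 42.6% held at least 1 GC box in those 250 bases. Among the 3675 promoters with exactly 2, the share with a peak within 1000 bp of the start was 31.1% in the Sp1 WT FLAG list, 20.4% in the Sp1 DBD list and 12.4% in the CTRL mouse anti-V5 list. A promoter with this count of GC boxes and no peak was therefore the commoner case.

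The main CLPTM1L start (1345099) was likewise without a peak in all 19 lists. It had 8 GC boxes within 500 bp. The 250 bases before it (chr5:1345100-1345349, minus strand, RefSeq, GRCh38.p14) are shown because they hold the canonical Sp1 motif, in capitals, yet carried no peak.
CLPTM1L upstream: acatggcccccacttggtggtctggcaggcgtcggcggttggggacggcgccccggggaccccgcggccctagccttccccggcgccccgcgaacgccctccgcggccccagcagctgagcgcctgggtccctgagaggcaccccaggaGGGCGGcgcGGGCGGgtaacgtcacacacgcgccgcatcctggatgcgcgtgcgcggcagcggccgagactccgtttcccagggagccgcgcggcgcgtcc
Its GC content was 77.2%, against 52.1% for the array 16065 bp downstream that carried the peak. A count by nearest annotated start would still place CLPTM1L among the genes with a peak in 12 lists. That count came from starts of minor transcripts, chiefly CLPTM1L-207 (1326255) and CLPTM1L-208 (1326436), which have no defined coding sequence. The second of these starts lies inside the array.

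Genes whose pattern over the 19 lists was most like that of CLPTM1L were found by the mean absolute difference in rank percentile of the strongest peak at a start (0 where there was none), over 20027 protein-coding genes. They were CCDC9, SLC27A1, MYO1F, FAM86B2 and C19orf81, at 2.85, 3.24, 3.25, 3.43 and 3.55 percentile points. FAM86B2 belongs to a family of near-identical copies, so its placement is uncertain. Each had a peak in 11 lists, all shared with CLPTM1L, as follows from the way they were chosen. In sequence they were unlike it: their Sp1 WT FLAG peaks held 10 to 18 GC boxes, and their self-match was 31% to 36.6%. SLC27A1, which encodes a fatty acid transporter, ranked 10 in Sp1 WT FLAG and 23 in Sp1 DBD.

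Genes of telomere maintenance, TERT included, were split between those with and without a peak. Of the 24 genes, 12 had a peak at a start in at least 1 list and 12 had none. The share of all protein-coding genes with a peak in at least 1 list was not counted, so this split has no background. The shares by list follow. TERC, among the 24, encodes an RNA rather than a protein. Sp1 WT FLAG had a peak at the start of 11 (45.8%), against 23.7% of 20046 protein-coding genes. The V5 lists of CTRL cells had 8 with rabbit antibody (33.3%, against 10.4% of protein-coding genes) and 6 with mouse antibody (25.0%, against 9.75%). Those of Sp1 WT cells had 6 and 6 (25.0% each, against 8.65% and 6.8%). Those of Sp1 IDR-LacI cells had 7 and 5 (29.2% and 20.8%, against 11.0% and 8.79%). Those of Sp1 IDR-CTCF DBD cells had 6 and 5 (25.0% and 20.8%, against 11.1% and 7.33%). Sp1 DBD had 7 (29.2%, against 16.1%), EWS IDR-Sp1 DBD 2 (8.33%, against 11.1%) and CTCF DBD 1 (4.17%, against 1.88%). The remaining 7 FLAG lists had none of the 24, with backgrounds of 0.574% for Sp1 IDR-CTCF DBD, 0.0649% for CTRL rabbit anti-FLAG, 0.00499% for Sp1 IDR-LacI and 0.0% for the others. A count over genes chosen with results known is a description.

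Within telomerase and its assembly factors, peaks were found at NHP2, DKC1, PARN and SMG6, but not at TERT, TERC, NOP10, GAR1, WRAP53, NAF1 or PINX1. NHP2 and DKC1 encode proteins of the telomerase RNA-protein particle, and PARN trims the 3′ end of the telomerase RNA. NHP2 had a peak in 10 lists, all 8 V5 lists among them, and ranked 1910 in Sp1 WT FLAG. PARN had a peak in 7 lists, and DKC1 and SMG6 in 2 each. The RNA template of telomerase, TERC, resembled TERT in having none.

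Shelterin coats the telomere repeat. TINF2, which encodes its bridging subunit TIN2, had a peak in 12 lists, the same number as CLPTM1L, with a Sp1 WT FLAG value of 82.0 and 7 GC boxes in the peak. TINF2 was also the single gene of the 24 in the CTCF DBD list. POT1, the single-strand binding subunit, had a peak in 3 lists, while TERF1 and ACD had one in Sp1 WT FLAG alone and TERF2 and TERF2IP had none.

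The CST complex helps fill in the strand at chromosome ends. Its subunit genes TEN1 and STN1 had peaks in 11 and 10 lists and CTC1 in 1. TEN1 had a Sp1 WT FLAG value of 77.3 and ranked 37 in EWS IDR-Sp1 DBD. DCLRE1B, which encodes a nuclease that processes telomere ends, had a peak in 10 lists, and RTEL1 in none. ATRX and DAXX, chromatin factors whose loss goes with recombination-based telomere maintenance, had none.

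**Figure D5:**
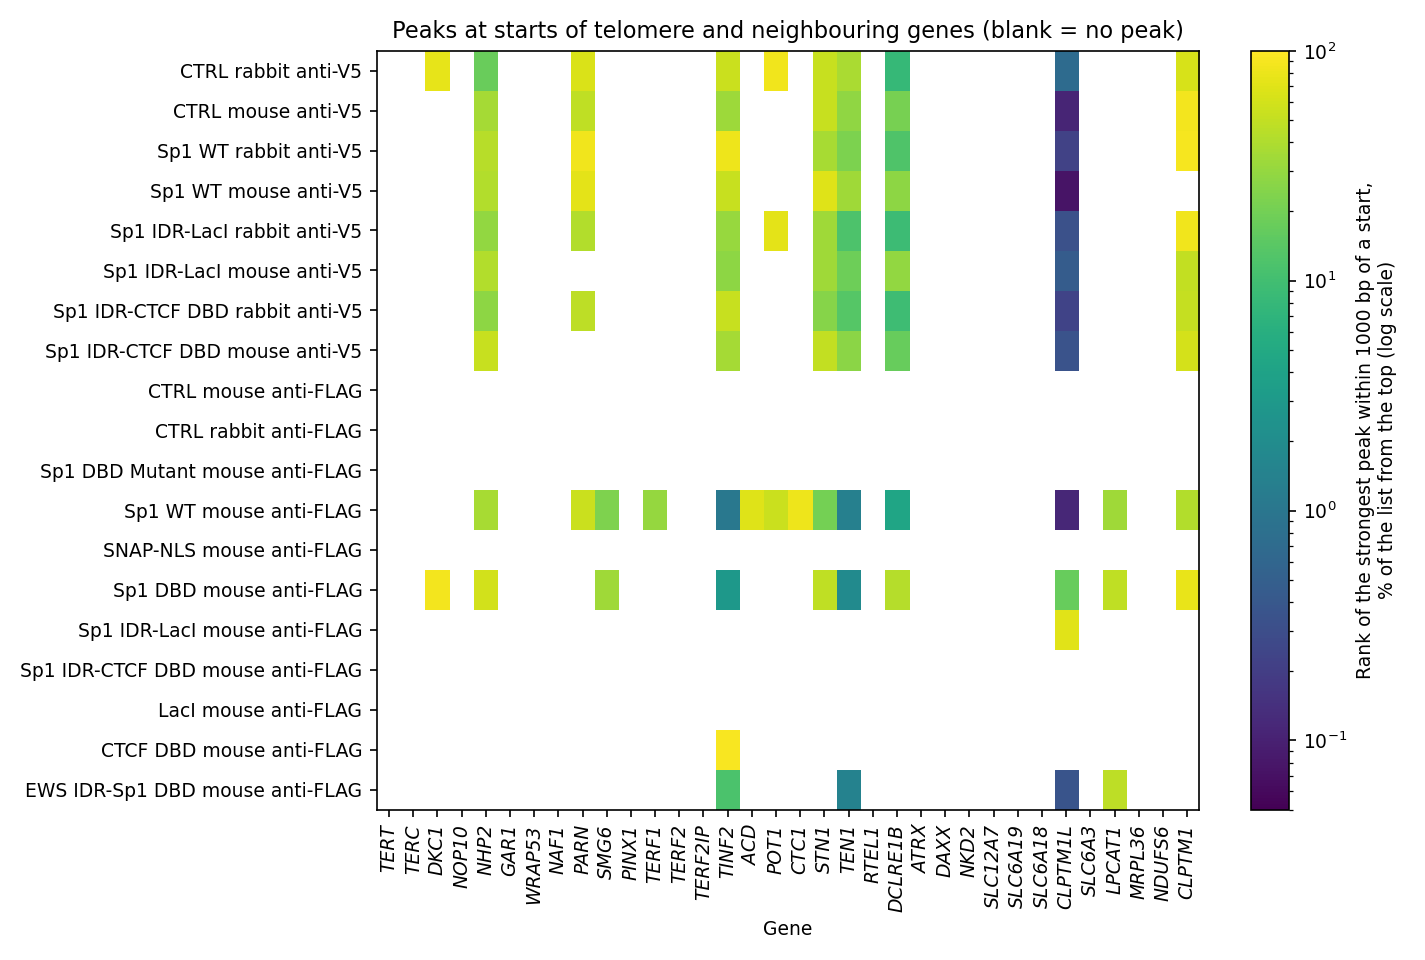
Genes of telomere maintenance and neighbours of TERT (columns) in the 19 lists (rows). Colour gives the rank of the strongest peak within 1000 bp of any annotated start as a percent of the list from the top on a log scale, and blank means no peak. TERT and TERC are blank throughout, and TINF2, TEN1, STN1, NHP2 and DCLRE1B are filled in all 8 V5 lists. CLPTM1L is the darkest cell in the V5, Sp1 WT FLAG and EWS IDR-Sp1 DBD rows. It is paler in the Sp1 IDR-LacI FLAG row and in the Sp1 DBD row, where TEN1 and TINF2 are darker.

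Of 10 genes in 5p15.33, TERT and CLPTM1L included, those with a peak at any start were CLPTM1L and LPCAT1, which encodes a phospholipid-remodelling acyltransferase. LPCAT1 had its peak in the Sp1 WT, Sp1 DBD and EWS IDR-Sp1 DBD FLAG lists and in no V5 list. The 2 of 10 in each of those FLAG lists stand beside the 23.7%, 16.1% and 11.1% of all protein-coding genes given above, and with 10 genes these counts do not set the neighbourhood apart. The LPCAT1 peak was the first to the right of the window, 159 kb from its edge, with a Sp1 WT FLAG value of 23.9 and 4 GC boxes. To the left, the nearest Sp1 WT FLAG peak was 455 kb from the edge. NKD2, SLC12A7, SLC6A19, SLC6A18, SLC6A3, MRPL36 and NDUFS6 had none. CLPTM1, the paralog of CLPTM1L, had a peak in 9 lists, with a Sp1 WT FLAG value of 21.2 and 2 GC boxes in the peak, well below the 114 at CLPTM1L.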

How the data were processed

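The sources used here give this processing by the authors: read trimming (cutadapt 2.6), local alignment to hg38 (Bowtie2 2.3.5.1), removal of duplicates (SAMtools 1.9) and peak calling against merged control replicates (MACS3, given as version 2.2.7.1, p of 1e-3). Lists hold peaks that passed an IDR of at most 0.1 between replicates (IDR 2.0.4.2; the irreproducible discovery rate, not the protein part). The deposited lists give −log10 p-values per replicate and merged. The deposited tables give log10 likelihood ratios from replicate-averaged tracks (MACS bdgdiff, cutoff 1). Depth is not in these files.

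The members and gene lists were chosen with earlier results of these data known, and no test was made. The rule's window was read as spanning both genes and 20 kb to each side. Starts came from GENCODE 44; a peak interval within 1000 bp counted. Named genes were the 2 members, the fixed telomere and neighbour lists, and the 5 genes most like CLPTM1L at least 1 Mb away. Python 3.11.15, NumPy 2.4.6, pandas 2.3.3 and pysam 0.24.0 were used, and the counting functions were tested on simulated data. Repeat, word and promoter counts were added after the data were seen.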

Additional observations from a re-analysis of the deposited data

How the results depend on the processing

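Of 29 alternatives over 8 results, 26 left the value within 1.5 times of the one reported and 3 did not. Lists with a peak at a CLPTM1L start fell from 12 to 1 when the summit replaced the peak interval, and to 0 with the starts of protein-coding transcripts alone, a choice made after seeing the data. The minor starts near the repeat are not among the protein-coding ones, the nearest of which lies 12550 bp from the Sp1 WT peak. Peaks with a GC box rose from 0 near the summit to 1 over the whole peak. Stricter IDR limits of 0.05 and 0.01, and windows of 0 and 100 kb, kept 12 peaks, and TERT stayed at 0 lists under every alternative. Ranking by 1 replicate alone put 9 to 10 peaks in the highest 1%, and peaks with a GC box by 1 replicate's summit were 0 to 0. Signal value could not rank peaks, since it is -1 in all lists. No paired analysis was possible because no result comes from a test. Without counts, differences in depth between lists could not be weighed.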
